A study of Mus musculus with 9 samples.

Results

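The CREB-responsive immediate early genes, 10 in number, were read out in bulk liver of male C57BL/6J mice after formoterol or its vehicle. They are Fos, Jun, Junb, Crem, Egr1, Nr4a1, Dusp1, Sik1, Btg2 and Ier2, picked by symbol from a table of 56748 genes because they are known as targets of the cAMP-responsive transcription factor CREB. All 10 were present, and all 10 were among the 13042 genes that held enough counts to be tested. Each mouse ate a high-fat diet for 20 weeks from 8 weeks of age, in both groups, and was 28 weeks old at the end. In the last 4 weeks 5 mice were injected daily into the peritoneum with formoterol at 1 mg/kg and 4 with its vehicle, DMSO. Libraries were placed in the groups by the suffix of their column name and the group sizes, so each direction rests on that reading. Neither group was left on normal chow, so the values describe formoterol on this diet alone. The time from the last injection to tissue collection is not given in the sources used here.

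Immediate early genes are switched on within minutes of a stimulus, without new protein synthesis, and their transcripts are short-lived. Formoterol is a beta-adrenergic agonist, a kind of drug that raises cyclic AMP. Cyclic AMP frees the catalytic subunits of protein kinase A, which phosphorylate CREB on the cAMP response element of its target promoters, and it relieves inhibition of the CRTC coactivators by salt-inducible kinases. Several of these genes also answer to growth factors through serum response factor, and to stress kinases. Bulk liver RNA comes mostly from hepatocytes, but each of these genes can also be expressed in immune, endothelial and stromal cells. Fewer cells of a type and less RNA per cell cannot be told apart in these libraries.

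The start-site regions of 5 of the genes are shown because they carry, or lack, the element that gives CREB targets their name. The windows reach from 250 bases before to 50 bases after the annotated start, on the strand of the gene, and come from RefSeq on build GRCm38.p6. They were matched by symbol, and 6 of the 10 genes had a window that could be used. Capitals mark the core TGACG, or its complement CGTCA, and the full element TGACGTCA, which contains both.
Btg2: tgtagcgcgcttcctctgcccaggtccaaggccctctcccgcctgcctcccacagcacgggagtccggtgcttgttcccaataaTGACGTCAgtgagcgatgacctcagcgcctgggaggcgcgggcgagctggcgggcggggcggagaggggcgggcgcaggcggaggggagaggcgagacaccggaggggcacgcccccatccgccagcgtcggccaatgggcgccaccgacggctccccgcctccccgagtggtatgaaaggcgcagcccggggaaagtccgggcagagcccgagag
Dusp1: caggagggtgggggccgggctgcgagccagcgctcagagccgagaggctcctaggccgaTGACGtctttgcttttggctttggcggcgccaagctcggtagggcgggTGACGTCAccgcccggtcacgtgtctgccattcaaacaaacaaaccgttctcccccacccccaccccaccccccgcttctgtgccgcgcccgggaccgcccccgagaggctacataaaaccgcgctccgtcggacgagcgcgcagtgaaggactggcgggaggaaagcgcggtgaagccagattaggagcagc
Fos: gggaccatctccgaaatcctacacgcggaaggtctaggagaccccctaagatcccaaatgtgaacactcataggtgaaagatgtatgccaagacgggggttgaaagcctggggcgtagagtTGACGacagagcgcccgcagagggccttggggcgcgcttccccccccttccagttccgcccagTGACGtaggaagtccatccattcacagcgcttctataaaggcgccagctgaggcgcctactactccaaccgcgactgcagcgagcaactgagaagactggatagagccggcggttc
Nr4a1: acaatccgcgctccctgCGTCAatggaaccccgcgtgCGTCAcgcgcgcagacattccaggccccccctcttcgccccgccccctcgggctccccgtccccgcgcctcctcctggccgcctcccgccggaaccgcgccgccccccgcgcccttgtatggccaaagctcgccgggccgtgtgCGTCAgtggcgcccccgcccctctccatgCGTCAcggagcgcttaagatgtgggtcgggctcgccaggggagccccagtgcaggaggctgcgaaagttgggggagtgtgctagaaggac
Jun: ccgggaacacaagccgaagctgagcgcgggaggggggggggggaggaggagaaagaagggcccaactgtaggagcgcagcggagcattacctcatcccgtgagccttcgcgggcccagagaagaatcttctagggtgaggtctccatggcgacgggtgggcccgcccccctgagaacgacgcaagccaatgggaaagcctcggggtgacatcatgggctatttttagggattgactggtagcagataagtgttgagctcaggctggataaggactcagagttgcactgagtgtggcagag

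The Btg2 window (chr1:134079106-134079405, minus strand) held the full element 166 bases before the start. The Dusp1 window (chr17:26508423-26508722, minus strand) held it 143 bases before the start, with a separate core at 191 bases. The Fos window (chr12:85473640-85473939, plus strand) held cores at 129 and 66 bases before the start and no full element. The Nr4a1 window (chr15:101266596-101266895, plus strand) held 4 cores in the reverse orientation, the nearest 40 bases before the start. The Junb window, not shown, held 1 core at 106 bases. The Jun window (chr4:95052173-95052472, minus strand) held no exact match to the core or the full element. It did hold tgacatca, which differs from the full element in 1 letter. The search took exact matches only, and it says nothing of sites elsewhere. Among all 32851 windows of this length, 1.79% held the full element and 20.8% the core on either strand. Neither the AP-1 motif TGANTCA nor the CArG box bound by serum response factor was found on either strand of the 6 windows, against 7.81% and 1.63% of all windows. A match is a run of letters and not a measured binding site. Absence of a match says nothing of variant sites inside the windows, of sites outside them, or of members without a window.

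Libraries held 12336665 to 20339665 counts, which did not differ between the groups (exact permutation p = 0.81, two-sided). The 5 hepatocyte markers that were matched (Alb, Apoa1, Ttr, Apob and Cps1) summed to 80594.8 to 132579 CPM, so the tissue read as liver. CPM are counts relative to library size, scaled with TMM factors, which correct for differences in composition between libraries. Formoterol library M49 stood apart. Without it edgeR's quasi-likelihood test called 702 genes, where it called 0 with all 9 libraries, and 1178 genes were higher and 721 lower in formoterol at an unadjusted p under 0.05. Leaving out any other library gave 0 to 4 calls. Results are therefore given with and without M49. It was singled out by these calls, after the values were seen, so a call made without it is no independent support.

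None of the 10 genes passed the edgeR test with all libraries at a Benjamini-Hochberg adjusted p under 0.05, and the background was 0% higher and 0% lower. Log2 fold changes, formoterol minus vehicle, were negative for 8 genes and positive for Crem and Ier2. Their median was −0.51, against −0.01 over all genes tested. At an unadjusted p under 0.05, 1 gene (Ier2) was higher and 2 (Jun and Btg2) were lower, beside 9.03% and 5.53% of all genes tested. Without M49, Jun and Btg2 passed as lower and Ier2 as higher, beside 2.04% lower and 3.47% higher of 12736 genes. By limma-voom with sample quality weights the calls were Jun and Btg2 lower and Ier2 higher (background 4.46% lower and 6.07% higher). Those weights were estimated from the same values, so these calls are no independent support either. DESeq2 called none of the 10, while it called 3.15% of the genes it gave an adjusted p, and it gave none to Fos or Nr4a1.

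**Figure D1:**
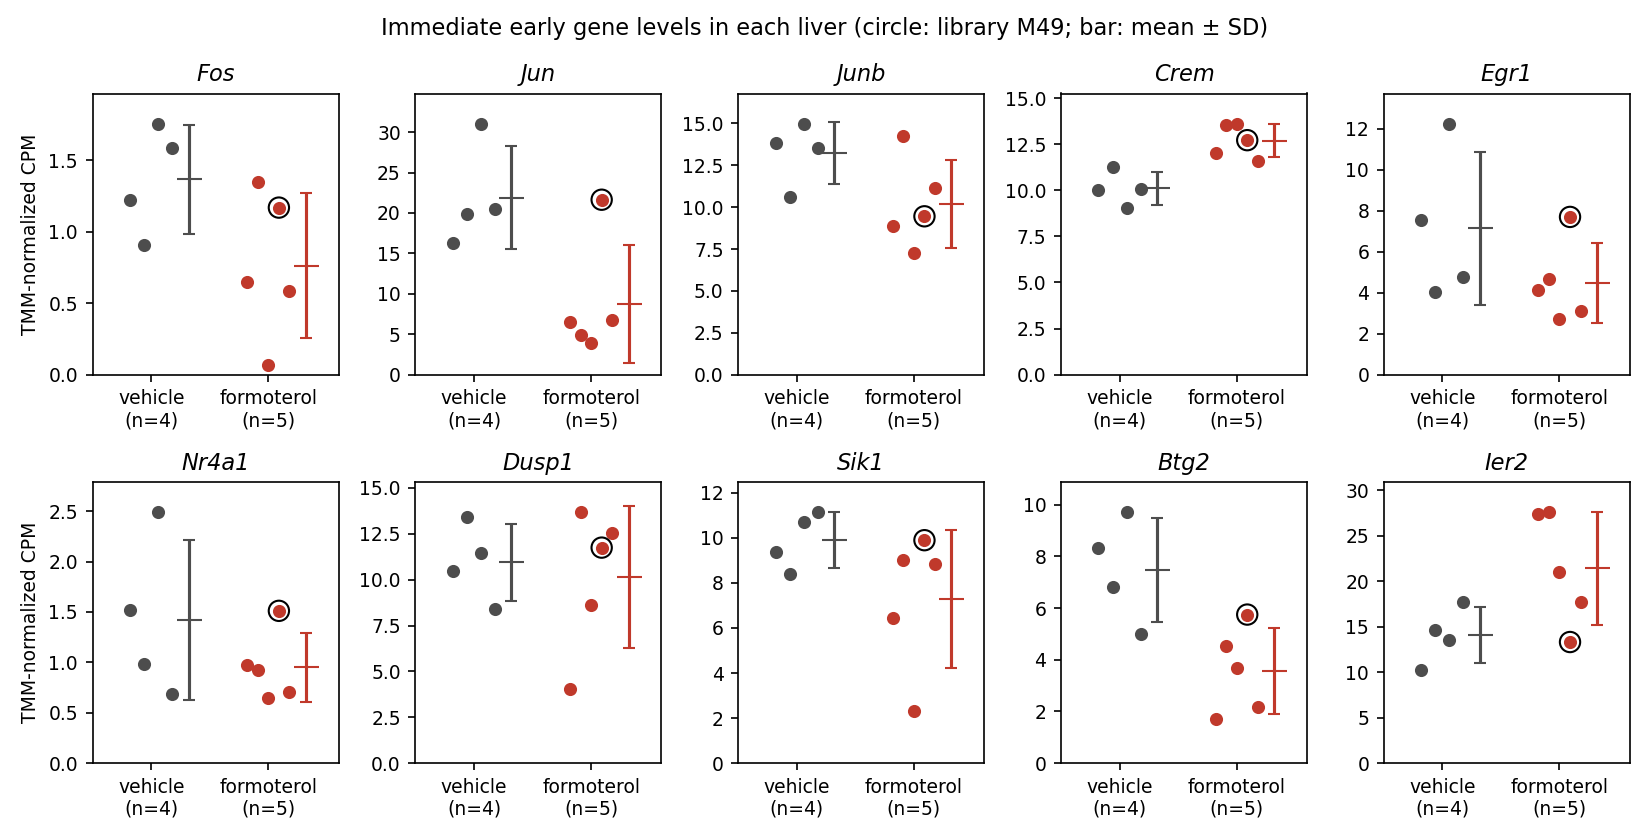
TMM-normalized CPM of each gene (vertical axis, from 0) in the 4 vehicle and 5 formoterol libraries. Points are libraries, bars give mean ± SD beside them, and the open circle marks formoterol library M49. In the Jun panel 4 formoterol points lie between 3.89 and 6.77 CPM and M49 lies at 21.6, inside the vehicle range of 16.3 to 31.1.

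The AP-1 subunits come first. Fos and Jun proteins pair into the AP-1 transcription factor, which drives genes of growth, stress and inflammation, and Junb is a Jun relative that can also restrain it. Jun (ENSMUSG00000052684; chromosome 4, 94937271 to 94940459 on mm39, minus strand) had the largest difference of the 10 genes. It stood at 16.3, 19.8, 31.1 and 20.4 CPM in vehicle libraries M56, M58, M59 and M60. In formoterol libraries M46, M47, M48, M49 and M50 it stood at 6.51, 4.89, 3.89, 21.6 and 6.77. Thus 4 of 5 formoterol livers lay below every vehicle liver, and M49 lay within the vehicle group. Group values were 8.74 ± 7.31 CPM (SD, n = 5) against 21.9 ± 6.36 (SD, n = 4). The log2 fold change was −1.31 (SE 0.46, edgeR adjusted p = 0.236), and −1.99 (SE 0.24, edgeR adjusted p = 6.37e-04) without M49. As ratios of formoterol to vehicle, these fitted fold changes were 0.403 with M49 and 0.251 without it.

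In several sums of markers of other cell types, but not in all, M49 lay above the other formoterol livers and M46 below them. M49 was not above them for Kupffer cell markers, at 73.5 CPM. It was the lowest formoterol library for T and NK cell markers (1.46 CPM) and neutrophil markers (0.585). M46 was not the lowest for these, at 2.12 and 0.895 CPM. The 6 stellate cell and fibroblast markers summed to 341 CPM in M49, to 69.7 in M46, to 173 to 221 in the other 3 formoterol libraries and to 215 to 372 in the vehicle libraries. The 5 cholangiocyte markers summed to 258 CPM in M49, to 70.1 to 114 in the other formoterol libraries and to 81.7 to 195 in vehicle. Most of that sum was Spp1, with 62.6 to 238 CPM in formoterol and 70.7 to 178 in vehicle libraries. Sox9, the next highest, reached 11.1 CPM in formoterol and 13.5 in vehicle, so the sum is largely the level of 1 gene. The 6 monocyte and macrophage markers summed to 48.7 CPM in M49, to 14.8 in M46, to 28.2 to 31.4 in the other 3 formoterol libraries and to 39.3 to 70.5 in vehicle. M46, which was lowest of all 9 libraries for Btg2 and Dusp1, was also lowest for the Kupffer cell markers, at 34.9 CPM against 73.5 to 84.1 in the other formoterol libraries. The part of these cell types in the values of Jun, Btg2 and Dusp1 was not tested.

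Fos (ENSMUSG00000021250; chromosome 12, 85520664 to 85524047, plus strand) had few counts. Its counts were 21, 11, 36 and 30 in the vehicle libraries M56, M58, M59 and M60, or 1.22, 0.905, 1.76 and 1.58 CPM. In the formoterol libraries M46 to M50 they were 8, 19, 1, 24 and 10, or 0.651, 1.35, 0.0648, 1.17 and 0.588 CPM. M46, M48 and M50 lay below all vehicle livers, and M47 and M49 lay among them. The single count in M48 has a 95% exact Poisson interval of 0.00164 to 0.361 CPM, which covers counting error only. The log2 fold change was −0.84 (SE 0.59, edgeR adjusted p = 0.543), less than 2 SE from 0.

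Junb (ENSMUSG00000052837; chromosome 8, 85701113 to 85705347, minus strand) ranged from 10.6 to 14.99 CPM in the vehicle and from 7.26 to 14.2 in the formoterol livers. The groups overlapped, and the log2 fold change was −0.38 (SE 0.20, edgeR adjusted p = 0.409). Overlaps of gene models were taken over whole gene spans, introns included. The Junb model shares 351 bp with Prdx2 on the opposite strand, an antioxidant gene at 157 against 108 CPM in formoterol and vehicle. Whether counting used strand is not given in the sources used here, so reads in that stretch cannot be assigned to either gene with certainty. The same holds for Jun and its antisense RNA Junos, which had 1 to 13 counts per library where Jun had 60 to 636.

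Crem, Egr1 and Nr4a1 encode other transcription factors. Crem (ENSMUSG00000063889; chromosome 18, 3266048 to 3337748, minus strand) gives rise both to activators and to ICER, a short repressor made from an internal cAMP-inducible promoter that shuts CREB targets off again. Counts per gene do not separate these forms. Crem stood at 10.02, 11.3, 9.03 and 10.1 CPM in vehicle libraries M56, M58, M59 and M60, and at 12.04, 13.5, 13.6, 12.7 and 11.6 in formoterol libraries M46 to M50. It was the 1 gene of the 10 whose groups did not overlap, higher in formoterol, where 2.45% of all genes tested were separated that way and 2.38% as lower. The difference was small, 12.7 ± 0.896 CPM against 10.1 ± 0.917, and the log2 fold change was 0.33 (SE 0.16, edgeR adjusted p = 0.347). It was 0.18 when libraries were scaled by their totals alone, and the groups then overlapped. That scaling moved the median of all genes by −0.15, so Crem kept the same distance to it.

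Egr1 (ENSMUSG00000038418; chromosome 18, 34992876 to 34998037, plus strand), a zinc finger factor induced by growth signals, varied widely within both groups. It stood at 7.57, 4.03, 12.3 and 4.75 CPM in vehicle libraries M56, M58, M59 and M60, and at 4.15, 4.68, 2.72, 7.70 and 3.12 in formoterol libraries M46 to M50. M59 was highest, followed by M49 and M56, and the groups overlapped. The log2 fold change was −0.68 (SE 0.36, edgeR adjusted p = 0.407), −0.98 without M49 and −0.28 without vehicle library M59. Nr4a1 (ENSMUSG00000023034; chromosome 15, 101152150 to 101172676, plus strand), an orphan nuclear receptor that cAMP induces in liver, ranged from 0.686 to 2.49 CPM in vehicle and from 0.648 to 1.51 in formoterol. Its log2 fold change was −0.57 (SE 0.49, edgeR adjusted p = 0.625), and −0.15 without M59. Nr4a1 had few counts, 10 to 51 per library. Its gene model shares 2740 bp with a long noncoding RNA gene on the same strand, which had 0 to 7 counts. Strand cannot separate reads in that stretch.

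The remaining members act on signalling, RNA or growth. Btg2 (ENSMUSG00000020423; chromosome 1, 134002908 to 134006858, minus strand) restrains proliferation and promotes removal of poly(A) tails from mRNA. It stood at 8.33, 6.83, 9.72 and 5.02 CPM in vehicle libraries M56, M58, M59 and M60, and at 1.71, 4.54, 3.70, 5.75 and 2.18 in formoterol libraries M46 to M50. Only M49 reached into the vehicle range, above M60. Group values were 3.57 ± 1.67 against 7.47 ± 2.02 CPM, a log2 fold change of −1.05 (SE 0.33, edgeR adjusted p = 0.191). Without M49 it was −1.30 (SE 0.32, edgeR adjusted p = 0.0324). With no filter on low counts edgeR called Btg2 with all libraries (adjusted p = 0.0328), beside 0.299% of 24041 genes called lower.

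Ier2 (ENSMUSG00000053560; chromosome 8, 85387960 to 85389483, minus strand), a nuclear protein of the early response, went the other way. It stood at 10.3, 14.6, 13.5 and 17.7 CPM in vehicle libraries M56, M58, M59 and M60, and at 27.4, 27.6, 20.9, 13.3 and 17.7 in formoterol libraries M46 to M50. M46, M47 and M48 lay above every vehicle liver, M50 just below the highest of them and M49 among them. Group values were 21.4 ± 6.2 against 14.04 ± 3.09 CPM, a log2 fold change of 0.60 (SE 0.23, edgeR adjusted p = 0.242). Without M49 it was 0.73 (SE 0.20, edgeR adjusted p = 0.0461). Without M49, the groups of Jun, Btg2 and Crem were separated, beside 7.63% of genes higher and 6.64% lower, while those of Ier2 still touched.

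Dusp1 and Sik1 are feedback genes: Dusp1 is a phosphatase that switches off MAP kinases, and Sik1 is the salt-inducible kinase that retains CRTC coactivators in the cytoplasm. Dusp1 (ENSMUSG00000024190; chromosome 17, 26724564 to 26781102, minus strand) had 10.1 ± 3.87 CPM in formoterol against 10.9 ± 2.09 in vehicle livers, with M46 lowest at 4.07 and M47 highest at 13.7. Its log2 fold change was −0.10 (SE 0.28, edgeR adjusted p = 0.901), and it turned positive without M46 (0.08) or without vehicle library M58 (0.01) and with quality weights (0.06). The span of its gene model overlaps that of Ergic1 on the opposite strand by 640 bp. Whether that stretch holds exon sequence was not tested, and reads in it carry the same doubt as those of Junb. On the same strand the Dusp1 span shares 1853 bp with Gm50275, a long noncoding RNA gene with 0 counts in every library. Sik1 (ENSMUSG00000024042; chromosome 17, 32063224 to 32074778, minus strand) ranged from 8.39 to 11.1 CPM in vehicle and from 2.33 to 9.89 in formoterol, with M48 lowest. Its log2 fold change was −0.44 (SE 0.31, edgeR adjusted p = 0.545). Btg2 and Dusp1, with a full element in the window shown, and Jun, without an exact match, were not called with all libraries. Any link between the letters in the windows and the levels of the genes was not tested.

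**Figure D2:**
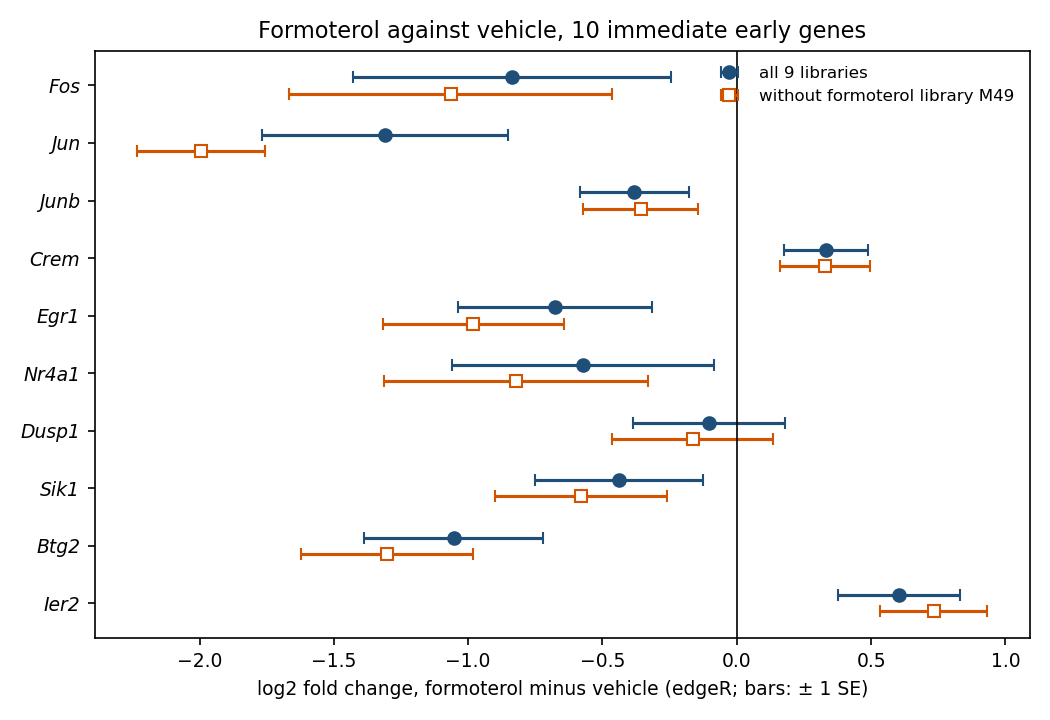
Log2 fold change of each gene, formoterol minus vehicle (horizontal axis), by edgeR with ± 1 SE. Filled circles use all 9 libraries and open squares leave out formoterol library M49. Jun moves from −1.31 to −1.99 and Ier2 from 0.60 to 0.73, while Crem stays at 0.33.

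Per kilobase of gene length, which allows genes to be compared with each other, Ier2 had the highest level in both groups, 9.21 ± 2.03 CPM per kb in vehicle and 14.04 ± 4.07 in formoterol livers. In vehicle livers Jun was the second gene at 6.87 ± 2.00 CPM per kb, followed by Junb at 5.76 ± 0.809. The steps from Ier2 to Jun and from Jun to Junb were smaller than the summed SDs of the neighbours, and the step from Junb down to Dusp1 was larger. Dusp1, Btg2, Sik1, Crem and Egr1 followed between 3.30 and 1.6 CPM per kb, with steps among them within the summed SDs, and the step from Egr1 down to Fos exceeded them. Fos and Nr4a1 were lowest at 0.581 and 0.405 CPM per kb. In formoterol livers Jun was the fourth gene at 2.74 ± 2.29 CPM per kb, after Junb at 4.43 and Dusp1 at 3.06. There only the steps below Ier2 and below Egr1 exceeded the summed SDs. The place of Jun includes M49, where it stood at 21.6 CPM against 3.89 to 6.77 in the other formoterol libraries. The order without M49 was not computed.

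The levels of the genes varied between libraries within each group. Vehicle library M59 was the highest of the 9 for 6 genes (Fos, Jun, Junb, Egr1, Nr4a1 and Btg2), and formoterol library M48 was the lowest for 6 (Fos, Jun, Junb, Egr1, Nr4a1 and Sik1). Crem ran against them, highest in M48 and lowest in M59. Averaged over the 10 genes, each centred on its own mean of log2 CPM, libraries ranged from −0.78 in M48 to 0.61 in M59. The formoterol values were −0.41 in M46, 0.09 in M47, −0.78 in M48, 0.27 in M49 and −0.30 in M50, and the vehicle values lay between 0.11 and 0.61. M47 and M49 therefore did not stand with the other 3 formoterol livers on this average.

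**Figure D3:**
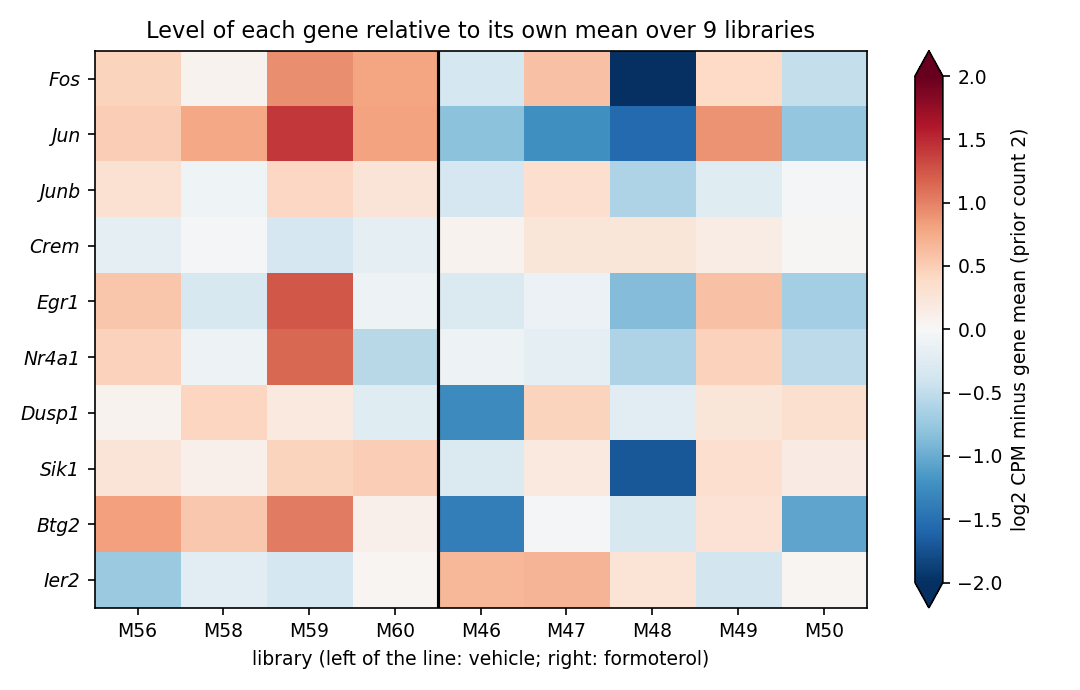
Log2 CPM (prior count 2) of each gene minus its mean over the 9 libraries, as colour from −2 to 2 (Fos in M48 lies beyond it at −2.40), with vehicle libraries left of the line and formoterol libraries right of it. M59 is red in most rows and M48 blue, with Crem and Ier2 in the opposite colours, and Jun is blue in every formoterol library except M49.

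The 5 genes whose profile over the 9 libraries lay nearest to that average, out of 12916 genes with a symbol, were Ywhag, Ctse, Stat6, Kif16b and Runx1. Pearson's r was 0.98, 0.96, 0.95, 0.95 and 0.95 and Spearman's rho 0.97, 0.93, 0.95, 0.95 and 0.98. They are the highest of many correlations over few libraries and are given as a description. Without M46 and M48, the libraries farthest from the median, r was 0.98, 0.96, 0.85, 0.91 and 0.94. Ywhag, a 14-3-3 protein, had 51.6 ± 8.85 CPM in formoterol against 65.1 ± 9.92 in vehicle livers (edgeR adjusted p = 0.348). Runx1, a transcription factor of blood cells, lay at 0.254 ± 0.394 against 0.77 ± 0.374 CPM.

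Of 32 other immediate early genes, 24 were tested, and edgeR called 0 of them in either direction. Their median log2 fold change was −0.21, with 18 negative and 6 positive. At an unadjusted p under 0.05, 4 were lower and 0 higher: Maff, Klf6, Zfp36 and Jund, where 5.53% of all genes tested were lower and 9.03% higher at that p. Maff, a small Maf transcription factor, had 2.52 ± 0.896 CPM in formoterol against 4.86 ± 0.788 in vehicle livers and did not overlap between the groups, as 2.38% of all genes did not in that direction (log2 fold change −0.94, edgeR adjusted p = 0.191). Without M49 the log2 fold change was −1.17 (edgeR adjusted p = 0.0285). Zfp36, which encodes the mRNA-destabilizing protein tristetraprolin, had 22.0 ± 12.2 against 41.2 ± 10.7 CPM. Klf6 had 7.59 ± 3.31 against 12.9 ± 5.47 CPM, and Jund, another Jun protein, 22.8 ± 7.80 against 32.5 ± 7.55. Without M49, 2 of the 24 were called lower and 0 higher, beside 2.04% and 3.47% of all genes. Beside Maff that was Dusp6, a phosphatase of ERK named after its values were seen, with 38.8 ± 11.7 against 51.1 ± 5.96 CPM and a log2 fold change of −0.59 (edgeR adjusted p = 0.0413) without M49.

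**Figure D4:**
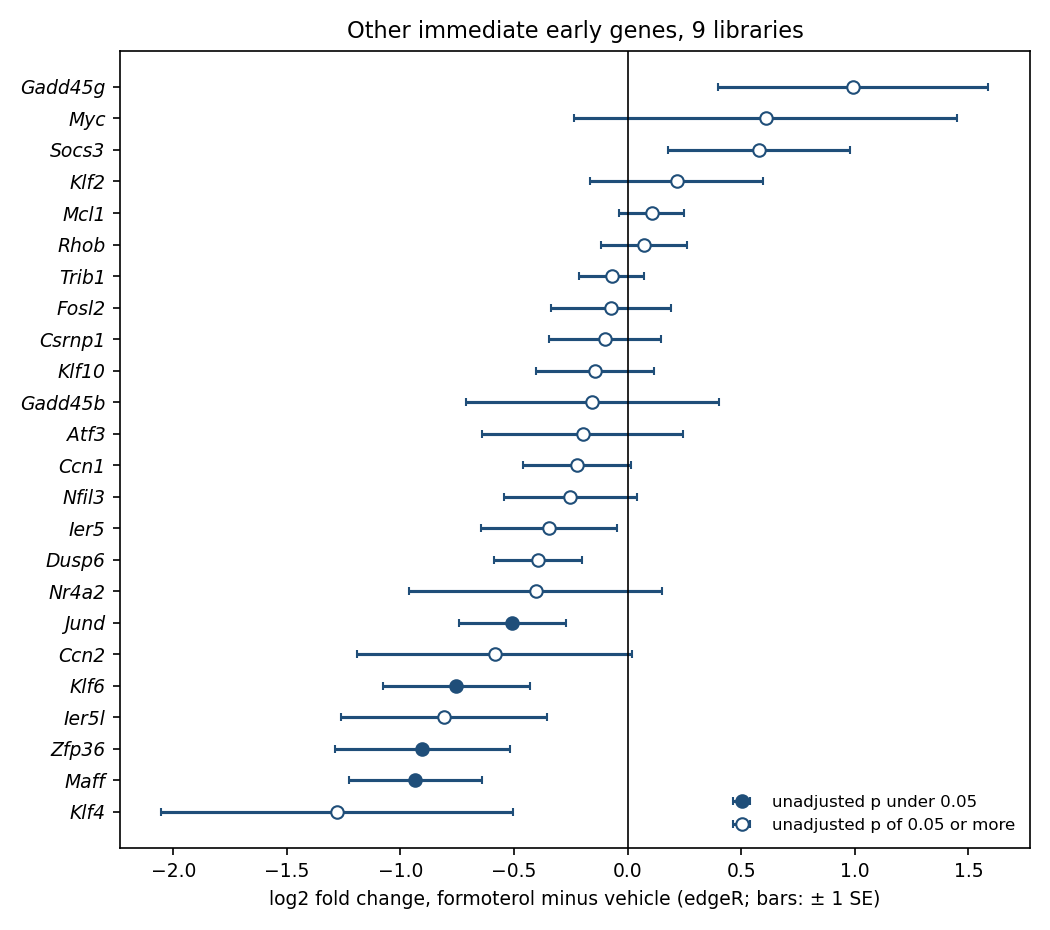
Log2 fold change, formoterol minus vehicle, of the 24 other immediate early genes tested (edgeR, 9 libraries, bars ± 1 SE). Filled points have an unadjusted p under 0.05. Those 4, Jund, Klf6, Zfp36 and Maff, lie between −0.51 and −0.94.

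The genes that act upstream were not called. Of 11 genes for CREB, its coactivators and kinases, 10 were tested, with a median log2 fold change of −0.13 and none at an unadjusted p under 0.05. The smallest p were those of Crtc3, a CRTC coactivator (3.83 ± 1.79 against 5.74 ± 1.45 CPM), and Prkaca, the catalytic subunit of protein kinase A (29.8 ± 3.91 against 35.3 ± 2.23). Crtc1 and Crtc2 had log2 fold changes of −0.30 and −0.16. Among 6 genes for serum response factor and its partners the median was −0.20, with −0.19 for Srf, −0.21 for Elk1, −0.32 for Elk4 and −0.26 for Mrtfb. Srf lay at 0.00 with quality weights. Adrb3, a beta-adrenergic receptor gene, had 7.23 ± 2.67 against 4.56 ± 1.97 CPM (0.68, edgeR adjusted p = 0.364).

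Other cAMP target genes of liver were not called either. All 10 were tested, with a median log2 fold change of −0.28, and 7 were negative and 3 positive. At an unadjusted p under 0.05, 1 was lower. That gene was Pde4b, a phosphodiesterase that breaks down cyclic AMP, with 8.68 ± 2.07 CPM in formoterol against 12.3 ± 2.55 in vehicle livers. Pde4d, a related enzyme, had 1.47 ± 0.478 against 2.18 ± 0.311 CPM, Igfbp1 2.17 ± 1.57 against 4.96 ± 2.79 and the clock gene Per1 12.9 ± 3.23 against 17.5 ± 8.07. The genes named are those of smallest p, which leaves the 3 positive ones out. None of the 10 passed without M49.

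Immediate early genes also follow the clock, handling and cell makeup, and those values are given beside them. Of 14 clock genes, 13 were tested and edgeR called 0 with all libraries. Nr1d1, a clock repressor, had 20.7 ± 6.51 against 46.5 ± 8.63 CPM with groups that did not overlap (log2 fold change −1.16, edgeR adjusted p = 0.151, and 0.00987 without M49). With all 9 libraries Nr1d1 passed by DESeq2 (adjusted p = 4.60e-04), by limma-voom with quality weights (adjusted p = 0.00368) and by edgeR with no filter on low counts (adjusted p = 1.33e-05). Cry1 had 8.15 ± 2.25 against 4.79 ± 1.81 CPM, Ciart 7.29 ± 1.38 against 10.5 ± 3.42 and Clock 13.8 ± 3.67 against 18.3 ± 2.67. Of 8 heat shock genes, 7 were tested and 0 were called, with a median log2 fold change of −0.39. Hsph1 had 10.01 ± 0.916 against 13.3 ± 1.88 CPM without overlap, Bag3 8.00 ± 3.36 against 11.7 ± 0.583, Hspb1 17.7 ± 5.09 against 23.2 ± 5.25 and Hspa1b 1.13 ± 0.42 against 1.77 ± 0.594. The hour of collection is not given in the sources used here, and the part of clock, handling or cell makeup in the members' values was not tested.

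The summed hepatocyte markers did not overlap, with 95938.5 to 132579 CPM in formoterol and 80594.8 to 92493.3 in vehicle libraries, as 2.45% of all genes did not in that direction. Most of the sum was Alb, with 85075 ± 13034 against 66918 ± 4634 CPM and groups that overlapped. Apoa1 did not overlap and was higher, while Ttr had a log2 fold change of 0.08 and Apob of −0.20. Sums of the 6 endothelial markers ranged from 25.0 to 77.1 CPM in formoterol and from 61.8 to 80.8 in vehicle libraries. Those of the 6 Kupffer cell markers ranged from 34.9 to 84.1 and from 46.3 to 82.6. Lymphocyte and neutrophil markers were near 0: the 4 of T and NK cells summed to at most 2.27 CPM, the 3 of B cells to at most 6.53 and the 5 of neutrophils to at most 1.40, with Ly6g at 0 in all 9 libraries. A count of 0 allows up to 0.146 to 0.247 CPM per library. The 4 erythroid markers summed to 272 to 526 CPM in formoterol and 170 to 560 in vehicle libraries.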

How the data were processed

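Poly(A) RNA from bulk liver of 9 mice was sequenced, 1 library per mouse. The values deposited by the authors are raw counts, with 1 line per Ensembl gene and 1 column per library. The submitters' processing notes name HISAT2 2.0.5, the mm39 build and DESeq2, and a program for counting, its strand setting and the annotation release were not found in them. Columns carry an animal code and a suffix, HF or HD, but no replicate number. The 5 HF columns were read as formoterol and the 4 HD columns as vehicle, from the suffix and the group sizes, and every direction rests on that reading. If libraries shared a mouse, the p-values would reflect technical spread alone. Each pair of libraries of a group differed by at least 24.3 in chi-square per degree of freedom, so none differed by sampling noise alone, which does not show that they came from different mice.

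Counts were filtered with edgeR 4.0.16 (filterByExpr, minimum count 10, minimum total 15), scaled with TMM factors and tested with the robust quasi-likelihood fit in R 4.3.3. P-values were adjusted by Benjamini-Hochberg over all 13042 genes tested. The SE is the absolute log2 fold change divided by the root of the F statistic. DESeq2 1.42.0, limma 3.58.1, other scalings and filters, and each library left out were alternatives. Named genes are the 10 members, up to 4 genes of smallest p in each related list, markers at 0, and the 5 nearest profiles. Members, lists and tests were chosen with earlier results of these data known. Counting error, the only error that intervals and floors cover, limits genes near 1 CPM. A gene of the related lists is not reported here.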

Additional observations from a re-analysis of the deposited data

Results flagged for a closer look

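In 82 groups of values (41 named genes in 2 groups) a library was singled out when its gap to the nearest other library exceeded Dixon's 95% limit of the group's range, which chance gives in about 1 group of 20. This happened 4 times, which is near that share of the 82 groups. Jun stood at 21.6 CPM in formoterol library M49, against 3.89 to 6.77 in the other 4, a gap of 0.838 of the range. Hsph1 stood at 8.41 CPM in formoterol library M50, against 10.2 to 10.6 in the others. Among vehicle libraries, Bag3 stood at 10.9 CPM in M58 against 11.9 to 12.1, and Hspb1 at 15.4 CPM in M56 against 25.7 to 26.1. Whether anything beyond chance sets these libraries apart was not tested.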

How the results depend on the processing

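No paired analysis was possible because the columns of the count table carry no replicate number. The count of genes called was 0 with all libraries, 302 by DESeq2, 1374 by limma-voom with quality weights and 263 with no filter on low counts. With 1 library left out at a time it ranged from 0 to 702, with 4 without vehicle library M60 and 702 without M49. Of the 10 members, 0 were called, but 3 with quality weights, 1 with no filter and 0 to 3 with 1 library left out. At an unadjusted p under 0.05 there were 3 members, 5 with quality weights and 2 to 5 with 1 library left out. Groups did not overlap for 1 member, 0 when scaled by library totals and 1 to 3 with 1 library left out (3 without M49, 2 without M60). The cause was not tested.

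Of 735 log2 fold changes of 41 named genes under 18 alternatives, 715 kept their direction and their side of the threshold, 16 passed it and 4 changed sign. Dusp1 turned to 0.060 with quality weights, 0.081 without M46 and 0.0070 without M58, within a range of −0.24 to 0.081. Srf turned to 9.47e-04 with quality weights. Over the libraries left out in turn Jun ranged from −1.99 to −1.09, Btg2 from −1.30 to −0.90, Ier2 from 0.48 to 0.74 and Crem from 0.28 to 0.39. Scaling by library totals moved the median of all genes by −0.15.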
